A study of Mus musculus with 14 samples.

Results

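The Hox genes are homeobox transcription factor genes that stand side by side in 4 clusters of the mouse genome, Hoxa on chromosome 6, Hoxb on chromosome 11, Hoxc on chromosome 15 and Hoxd on chromosome 2. All genes whose symbol is Hox followed by a cluster letter and a paralogue number were taken, which gave 39 of the 20207 genes listed in each RNA file, 11 in cluster A, 10 in cluster B, 9 in cluster C and 9 in cluster D. Their levels were followed in cultured mouse embryo fibroblasts with and without p53, left untreated or given doxorubicin, a topoisomerase II poison that breaks DNA. Of the 39 genes, 28 reached at least 1 CPM (reads scaled to the library's size) in at least 2 libraries and were tested, and 11 were too low.

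In the embryo, Hox genes are switched on in the order in which they lie in the cluster, so that low paralogue numbers mark anterior levels of the body and high numbers mark posterior levels and the ends of the limbs. Fibroblasts keep much of this code in culture, and their Hox pattern is used as a record of the place in the body from which they came. Polycomb complexes keep Hox genes silent outside their domain, trithorax complexes keep them on, and the homeodomain proteins of the TALE class (Pbx, Meis, Pknox) bind DNA together with Hox proteins.

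The series measured RNA in 10 libraries by sequencing 3' ends of poly(A) RNA, and p53 binding in other samples, which were not analysed here. All cells were of strain 129/Sv. The groups were p53-/- cells given 0.2 µg/ml doxorubicin for 6 h (2 libraries), untreated p53-/- cells (2 libraries), wild-type cells given the same treatment (3 libraries) and untreated wild-type cells (3 libraries). The labels number the replicates without saying whether a number stands for an embryo, a culture or a day, and they do not say which part of the embryo was plated, so a p-value here speaks of the spread among libraries, which may be technical.

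Depth went with genotype, at 18099584 to 25970173 reads in p53-/- libraries against 9768484 to 11770473 in wild-type libraries, so that 3 reads, scaled by trimmed means like all levels printed here, were 0.0945 to 0.144 CPM in p53-/- and 0.27 to 0.357 CPM in wild-type libraries. Reads of Trp53, the gene of p53, stood at 29.5 to 74.3 CPM in p53-/- and 20.1 to 43.5 CPM in wild-type libraries, a measure that does not see a deletion outside the sequenced end. Its target Cdkn1a, encoding the cell-cycle inhibitor p21, separated the genotypes as labelled, with 29.3 to 53.9 CPM in p53-/- libraries, 4080 to 5100 CPM in treated and 559 to 755 CPM in untreated wild-type libraries. All 12 fibroblast markers listed had reads, with summed levels of 4740 to 6060 CPM in p53-/- and 6620 to 9960 CPM in wild-type libraries. The sum hides unlike members: S100a4 had 537 to 866 CPM in p53-/- and 1600 to 3590 CPM in wild-type libraries. Between untreated genotypes, 4 of the 11 fibroblast markers tested were called higher and 1 lower in p53-/- cells. Of all genes tested, 20.4% were called higher and 12.7% lower. Libraries stood apart within their groups. Treated p53-/- library 2 held 15 Y-linked reads and 399 Xist reads, against 216 and 15 in untreated p53-/- library 2, so this shared number joins libraries that differ in sex markers. The wild-type libraries numbered 1 held 147 Y-linked reads when treated and 166 when untreated, against 0 to 9 in wild-type libraries 2 and 3. Xist was read in all wild-type libraries, with 110 reads in treated and 82 in untreated library 1, and 86 to 263 in libraries 2 and 3. Summed markers of cartilage (5 genes) also set wild-type library 1 apart, with 353 CPM treated and 361 CPM untreated. They stood at 43.2 to 81.7 CPM in wild-type libraries 2 and 3 and 435 to 789 CPM in p53-/- libraries, carried mainly by the cartilage collagen gene Col2a1. The part of these cells in the Hox values was not tested. Summed macrophage and blood markers were 36 to 47 CPM in p53-/- libraries, 25.6 to 118 CPM in treated and 53.4 to 271 CPM in untreated wild-type libraries, and of their 12 listed genes Hba-a1 was at 0 in all libraries. In bulk RNA, fewer cells of a type and less RNA per cell cannot be told apart.

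Because 3 of the 5 Hox genes called between untreated genotypes below have a RefSeq start-site window, these windows are shown, each the 250 bases before the start in the direction of the gene (GRCm38.p6, Hoxa3 at chr6:52213068-52213317 on the minus strand, Hoxa9 at chr6:52227371-52227620 on the minus strand, Hoxb8 at chr11:96281655-96281904 on the plus strand). Capitals mark matches on either strand to the Hox and Pbx motif TGATNNAT, the TATA box TATAAA and the CCAAT box.
Hoxa3: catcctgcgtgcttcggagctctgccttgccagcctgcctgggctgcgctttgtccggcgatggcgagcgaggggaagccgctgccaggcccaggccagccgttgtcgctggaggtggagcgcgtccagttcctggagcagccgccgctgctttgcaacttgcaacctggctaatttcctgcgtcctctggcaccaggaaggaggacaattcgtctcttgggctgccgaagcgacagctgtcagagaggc
Hoxa9: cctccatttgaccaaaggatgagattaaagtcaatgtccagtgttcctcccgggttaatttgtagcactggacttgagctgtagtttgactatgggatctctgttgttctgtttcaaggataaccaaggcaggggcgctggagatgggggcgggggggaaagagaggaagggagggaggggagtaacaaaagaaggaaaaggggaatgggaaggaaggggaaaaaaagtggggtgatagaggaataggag
Hoxb8: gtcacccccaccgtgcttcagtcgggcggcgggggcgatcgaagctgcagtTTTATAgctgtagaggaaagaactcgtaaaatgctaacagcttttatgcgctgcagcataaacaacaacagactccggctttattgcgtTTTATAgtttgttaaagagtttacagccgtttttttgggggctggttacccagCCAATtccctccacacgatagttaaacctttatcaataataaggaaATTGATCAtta

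The Hoxb8 window held 1 TGATNNAT match, 2 TATAAA matches and 1 CCAAT match, none of which overlapped, while the Hoxa3 and Hoxa9 windows held none of these motifs. The windows also differed in CpG, with 18 in Hoxa3, 12 in Hoxb8 and 3 in Hoxa9. Over 24 windows of 22 Hox genes, 4 held TGATNNAT, 4 TATAAA, 14 CCAAT and 3 the p53 half-site, beside 7.68%, 12.4%, 33.8% and 7.13% of all 32851 windows of this length. Hox windows held 2 to 35 CpG, and 19 of the 24 held more than the median of 6 over all windows. Among the called genes, Hoxa4, Hoxb2, Hoxb3, Hoxb7 and Hoxc13 are named only.

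All 4 clusters were read in both genotypes. Hoxc9, a gene of the trunk and limbs, stood at 20.2 to 26 CPM in p53-/- and 13.9 to 31.4 CPM in wild-type libraries, and Hoxa7 at 12.4 to 21.1 CPM in p53-/- and 5.98 to 18.4 CPM in wild-type libraries. Reads from 3' ends are counted per gene and not per length. Models of 11 of the 39 Hox genes overlap another listed gene, so the order of genes is not taken as a comparison of expression. Summed over all members, Hox reads came to 110 and 100 CPM in treated and 142 and 148 CPM in untreated p53-/- libraries, against 103, 146 and 105 CPM in treated and 113, 129 and 102 CPM in untreated wild-type libraries. The treated p53-/- sums lay inside or below the wild-type range, while the untreated p53-/- sums lay above all wild-type sums except that of treated wild-type library 2, which fell between them. At least 1 read was found for 37 to 39 members in p53-/- libraries and 32 to 36 in wild-type libraries. With reads thinned to 9768484 in every library, these numbers were 33 to 38 in p53-/- and 30 to 36 in wild-type libraries, so the ranges overlapped at equal depth.

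**Figure D1:**
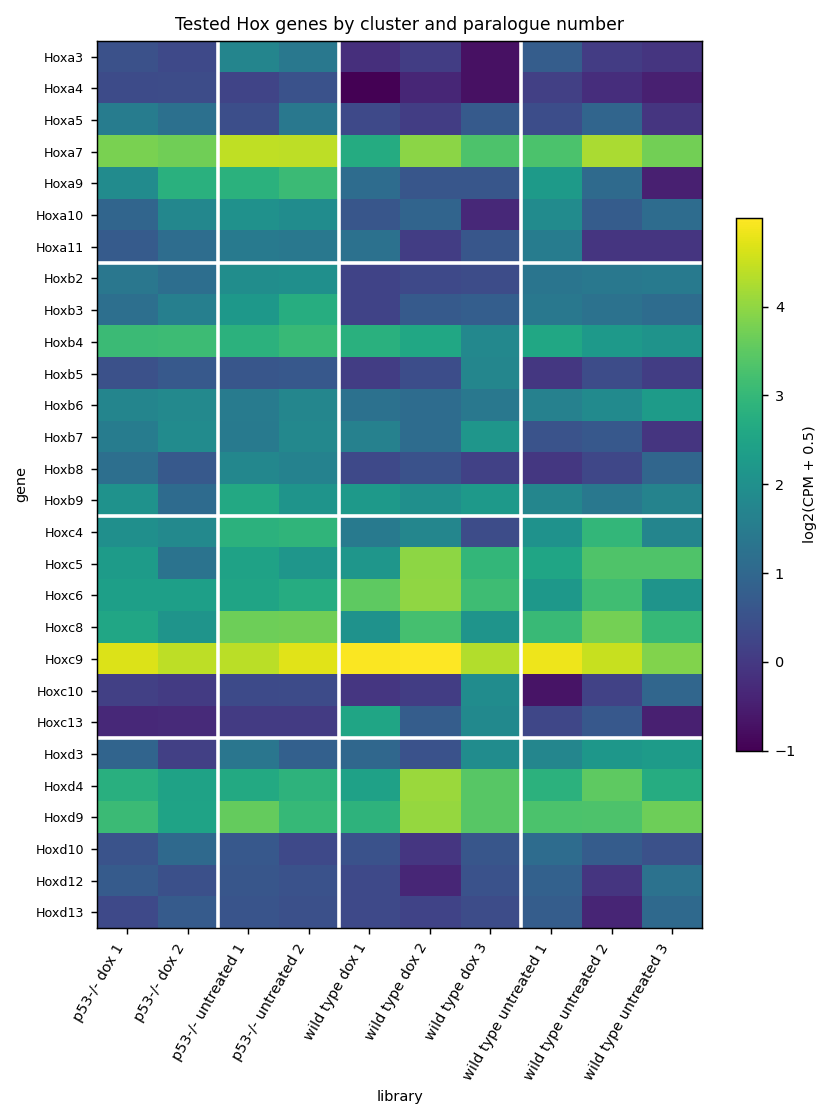
Colour gives log2(CPM + 0.5) of the 28 tested Hox genes (rows, clusters A to D separated by white lines, in order of paralogue number) in the 10 libraries (columns, p53-/- left of wild type). Hoxc9, Hoxa7, Hoxd4 and Hoxd9 are bright in every library, and Hoxc13 is brightest in the treated wild-type libraries.

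The members that were not tested included Hoxa2, Hoxa6, Hoxa13, Hoxb1, Hoxb13, Hoxc11, Hoxc12, Hoxd1, Hoxd8 and Hoxd11. None of these passed 0.625 CPM in a p53-/- library or 0.899 CPM in a wild-type library, both reached by Hoxa2, a gene of the hindbrain and neural crest. Hoxa13, which patterns the end of the limb and the cloaca, had 15 reads over the p53-/- libraries and 1 over the wild-type libraries. Hoxa6 had 6 reads over the p53-/- libraries and 0 in the 6 wild-type libraries, where 3 reads would stand at 0.27 to 0.357 CPM. Hoxb13, the most posterior gene of its cluster, was the 1 gene among them with fewer reads in p53-/- cells, 3 over their 4 libraries against 14 over the 6 wild-type libraries, although the p53-/- libraries were deeper. It stood at 0 to 0.0759 CPM in p53-/- and 0.0935 to 0.45 CPM in wild-type libraries, so that the genotypes did not overlap, on 0 to 2 and 1 to 4 reads a library. Nor did they overlap for Hoxa6, which was higher in p53-/- libraries. How often genes too low to be tested separate in this way was not counted, and Hoxb13 was chosen after its values were seen. At such counts the error of counting alone is large, and without molecular identifiers some reads may be copies of 1 molecule.

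To ask which Hox genes differ with p53 before damage, untreated p53-/- cells were compared with untreated wild-type cells. Of the 28 tested Hox genes, 5 passed, all of them higher in p53-/- cells (17.9%), Hoxa3 and Hoxa9 of cluster A and Hoxb3, Hoxb7 and Hoxb8 of cluster B. This is below the share over all 11177 genes tested, of which 33.1% passed, 20.4% higher and 12.7% lower, so Hox genes were not called more often than other genes. The 5 were also all the Hox genes with an unadjusted p under 0.05, beside 45.9% of all genes. Of all calls 61.6% were higher in p53-/- cells, or 86.7% with library size alone in place of trimmed means. The Hox genes had a median log2 fold of 0.48, beside 0.09 for all genes, and 20 of 28 folds lay above 0, beside 53.2% of all genes.

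Hoxa9, a posterior gene of the trunk and the upper limb segments that is also active in blood progenitors, had the largest fold of the 5. It stood at 6.59 and 8.05 CPM in untreated p53-/- libraries, against 4.29, 1.62 and 0.225 CPM in untreated wild-type libraries. The groups did not overlap, and the wild-type values spanned 36 to 2 reads, highest in library 1. The log2 fold was 2.0 (SE 0.65, adjusted p = 0.0392). The call was lost in 10 of 23 alternative settings. Without untreated wild-type library 3 the log2 fold was 1.29 (adjusted p = 0.0918), and without library 2 it was 2.06 (adjusted p = 0.0785).

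Hoxa3, which patterns the pharyngeal arches and the neck, had 2.84 and 2.16 CPM in untreated p53-/- libraries against 1.19, 0.539 and 0.45 CPM in untreated wild-type libraries, which gave a log2 fold of 1.33 (adjusted p = 0.0167, SE 0.34). The lowest p53-/- value was above the highest wild-type value, which again was that of library 1. The gene model of Hoxa3 overlaps those of Hoxa4, Hoxa5 and Hoxa6, so its reads are uncertain. Folds at these levels are understated by the 0.5 CPM added before the log.

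In cluster B the called genes were 1 anterior and 2 central ones. Hoxb3, a hindbrain and neck gene whose model overlaps that of Hoxb4, had 4.09 and 6.11 CPM in untreated p53-/- libraries and 2.14, 1.89 and 1.69 CPM in untreated wild-type libraries, a log2 fold of 1.2 (SE 0.31, adjusted p = 0.0182). Hoxb8, a trunk gene that is also active in blood progenitors, had 2.93 and 2.64 CPM in p53-/- against 0.476, 0.719 and 1.46 CPM in wild-type libraries, a log2 fold of 1.31 (SE 0.34, adjusted p = 0.0175). Hoxb7, its neighbour, had 2.21 and 2.99 CPM in p53-/- against 0.953, 1.08 and 0.45 CPM in wild-type libraries, a log2 fold of 1.25 (SE 0.37, adjusted p = 0.0303). For none of these genes did the genotypes overlap before treatment. Here and for other called genes, such separation is not separate evidence, since the calls rest on the same libraries. All 5 calls rested on both untreated p53-/- libraries: without either one, none passed, at log2 folds of 0.96 to 2.14 and adjusted p of 0.0667 to 0.183. Without untreated wild-type library 3, 1 Hox gene passed, and without library 2, 2 passed.

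By cluster, all 7 tested genes of cluster A had a fold above 0, with a median of 0.72 and a range of 0.5 to 2.0. Cluster B had 7 of 8 above 0 (median 0.71), the exception being Hoxb6 at -0.31, cluster C had 5 of 7 (median 0.16) and cluster D had 1 of 6 (median -0.2). No gene of cluster C or D passed, and the smallest adjusted p in cluster D was 0.11, for Hoxd3 at -0.98. With library size alone, where the median of all genes moved to 0.43, 4 of the 6 cluster D folds lay above 0. The ranges of the clusters overlapped, and differences between clusters were not tested. By paralogue group the medians were 0.59 for anterior genes (1 to 4), 0.47 for central genes (5 to 8) and 0.16 for posterior genes (9 to 13), with 2, 2 and 1 genes called.

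Treated p53-/- cells were then compared with treated wild-type cells, with no library in common with the comparison of untreated cells. The 2 comparisons are not independent, since both come from 1 fit and wild-type libraries of the same number deviated together. Here 3 of 28 Hox genes passed (10.7%), beside 12.1% of all genes, so the share was near the background. Over all genes 5.25% were higher and 6.82% lower, and 43.5% of the calls were higher, or 68.6% with library size alone. Hoxa4 and Hoxb2 were higher in p53-/- cells and Hoxc13 was lower.

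Hoxc13, known from hair and nail and the most posterior gene of cluster C, had 0.304 and 0.315 CPM in treated p53-/- libraries against 5.23, 1.21 and 3.09 CPM in treated wild-type libraries. These are 8 and 10 reads against 56, 13 and 30 in the shallower wild-type libraries, and the groups did not overlap. The log2 fold was -2.02 (SE 0.48, adjusted p = 0.0228). Hoxc13 passed the filter on low levels only through wild-type libraries.

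Hoxb2, a hindbrain gene, had 2.09 and 1.73 CPM in treated p53-/- libraries against 0.654, 0.745 and 0.824 CPM in treated wild-type libraries, with no overlap and a log2 fold of 0.96 (SE 0.25, adjusted p = 0.0344). Hoxa4, of the neck and lung, had 0.797 and 0.819 CPM in treated p53-/- libraries against 0, 0.279 and 0.103 CPM in treated wild-type libraries. The wild-type values are 0, 3 and 1 reads, so this log2 fold of 1.08 (SE 0.27, adjusted p = 0.0296) rests on the 0.5 CPM added, and Hoxa4 passed the filter only through p53-/- libraries. Its model also overlaps that of Hoxa3. Without either treated p53-/- library 0 Hox genes passed, Hoxa4 being too low to be tested without library 2. For Hoxc13 the log2 fold was then -1.97 each time, with adjusted p of 0.102 without library 1 and 0.168 without library 2.

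**Figure D2:**
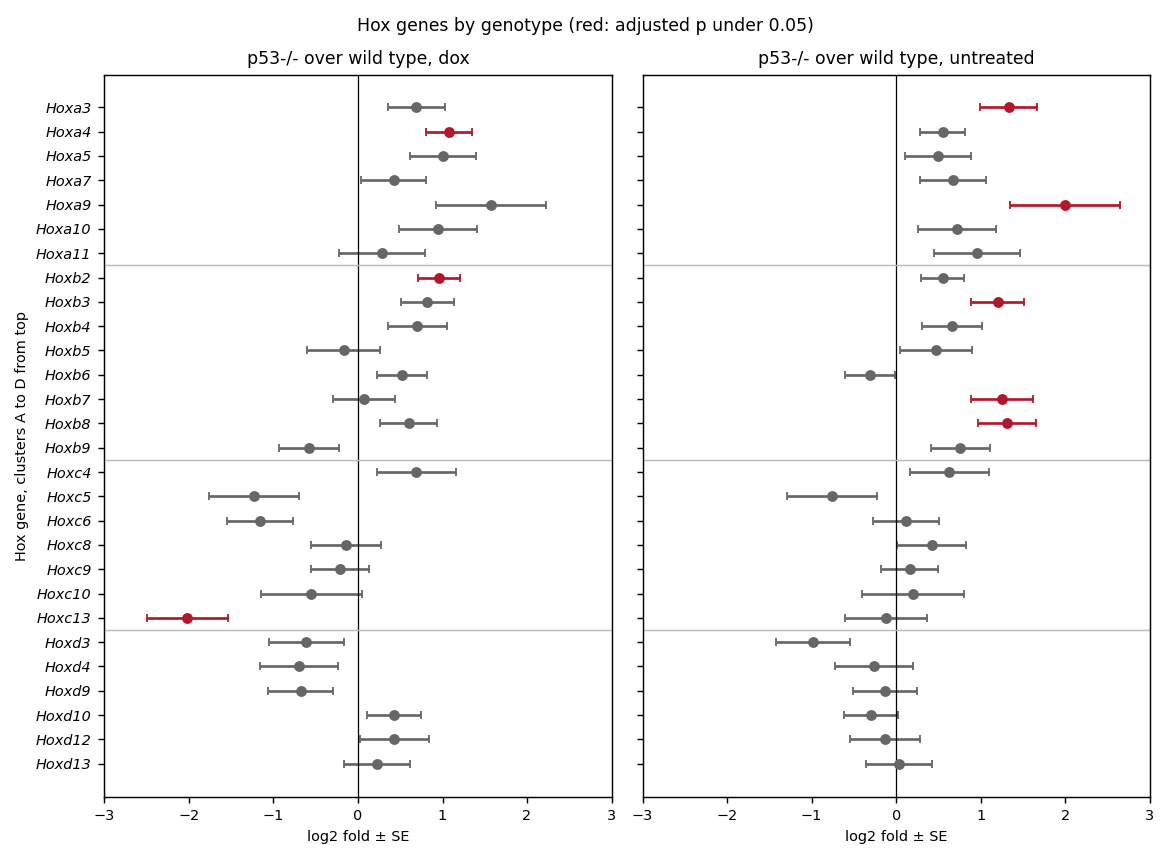
Log2 folds of p53-/- over wild type with their SE for the 28 tested Hox genes, in treated cells on the left and untreated cells on the right, with clusters A to D from top to bottom and calls in red. All 7 cluster A genes lie right of 0 in both panels, while in cluster C 6 of 7 lie left of 0 in treated cells.

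The 7 tested genes of cluster A had a fold above 0 here too (median 0.95, range 0.28 to 1.57), and 1 was called. In cluster B 6 of 8 lay above 0 (median 0.56), in cluster C 1 of 7 (median -0.55) and in cluster D 3 of 6 (median -0.19). Over all clusters this was 17 of 28, beside 51.7% of all genes. Of the 7 cluster A genes, Hoxa4 was tested only because of its p53-/- levels, which fixes its direction in part. With median-of-ratios scaling 7 of 7 lay above 0 in both comparisons, and 6 of 6 tested genes did so without both p53-/- libraries numbered 2. In cluster C, 3 of 7 folds lay above 0 in treated cells with library size alone.

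Single genes of cluster A shared this direction with differing spread. Hoxa7, of the trunk, had 13.4 and 12.4 CPM in treated and 21.1 and 20.5 CPM in untreated p53-/- libraries, against 5.98, 15 and 9.47 CPM in treated and 9.29, 18.4 and 12.6 CPM in untreated wild-type libraries. Its wild-type library 2 exceeded the p53-/- libraries when treated, and no Hoxa7 fold passed. Hoxa10, of the lumbar region and the uterus, had 1.44 and 2.9 CPM in treated and 3.56 and 3.3 CPM in untreated p53-/- libraries, against 1.03, 1.4 and 0.309 CPM in treated and 3.22, 1.17 and 1.69 CPM in untreated wild-type libraries, and did not pass either (adjusted p = 0.205 treated and 0.243 untreated). Summed over the cluster, Hoxa reads were 23.8 and 27.7 CPM in treated and 38.8 and 40.2 CPM in untreated p53-/- libraries, against 12, 19.5 and 13.2 CPM in treated and 22.6, 24.4 and 17 CPM in untreated wild-type libraries. Within each treatment the p53-/- sums were above the wild-type sums.

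Summed Hoxb reads were 23.6 and 22.8 CPM in treated and 28.5 and 30.7 CPM in untreated p53-/- libraries, against 18, 16.2 and 19.1 CPM in treated and 17.2, 16.4 and 17.8 CPM in untreated wild-type libraries, so all 4 p53-/- sums were above all 6 wild-type sums. Summed Hoxc reads overlapped between genotypes, with 44.1 and 35.2 CPM in treated and 51.4 and 57.6 CPM in untreated p53-/- libraries, against 56.9, 75.6 and 45.7 CPM in treated and 50.1, 62.1 and 39.7 CPM in untreated wild-type libraries. Summed Hoxd reads were 19 and 14.5 CPM in treated and 22.8 and 19 CPM in untreated p53-/- libraries, against 15.6, 35.1 and 27 CPM in treated and 23.5, 26.3 and 27.1 CPM in untreated wild-type libraries. Before treatment both p53-/- Hoxd sums lay below the 3 wild-type sums. With library size alone they were 26.3 and 23.2 CPM in untreated p53-/- against 20.2, 25.1 and 24 CPM in untreated wild-type libraries, and overlapped.

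**Figure D3:**
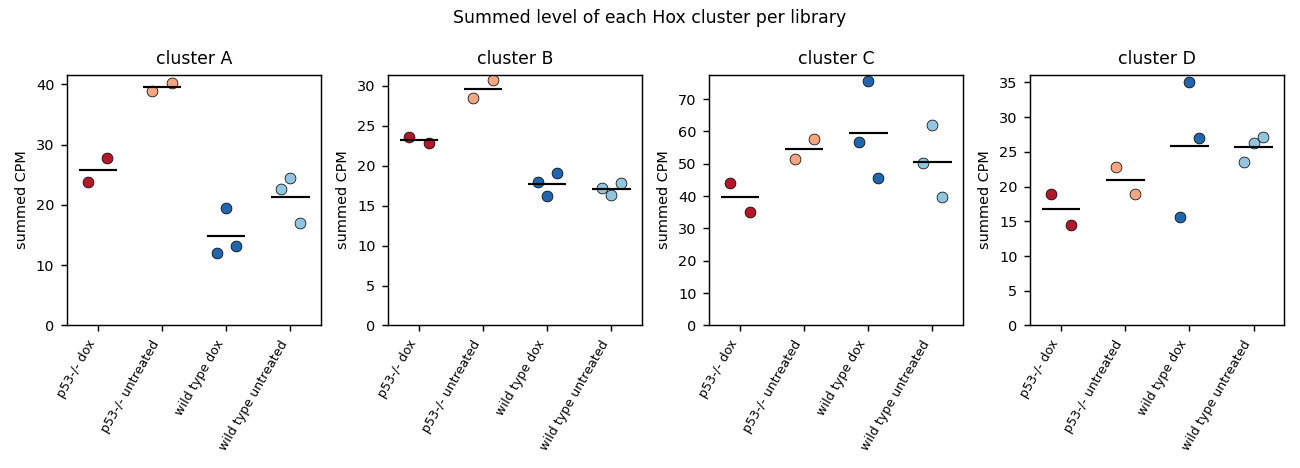
Summed CPM of the Hox genes of each cluster in every library (points) with the group mean (line), p53-/- groups left of wild-type groups. For cluster B the p53-/- libraries stand at 22.8 to 30.7 CPM, above the wild-type libraries at 16.2 to 19.1 CPM, while the genotypes overlap in cluster C.

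Over both treatments, 19 of 28 folds had the same sign in treated and in untreated cells, 14 higher and 5 lower in p53-/- cells, beside 68.7% of all genes, so the share was that of the background. The 5 lower ones were Hoxc5, Hoxc13, Hoxd3, Hoxd4 and Hoxd9. Every p53-/- library lay above every wild-type library for 2 genes, Hoxa4 and Hoxb4, beside 9.47% of all genes, and below for 0 of the 28, beside 7.69%. Hoxb4, of the neck and of blood stem cells, had 7.97 and 8.19 CPM in treated and 6.78 and 7.7 CPM in untreated p53-/- libraries, against 6.54, 5.49 and 2.99 CPM in treated and 5.48, 4.13 and 3.71 CPM in untreated wild-type libraries. Its log2 folds of 0.7 in treated and 0.66 in untreated cells did not pass (adjusted p = 0.215 and 0.162).

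Paralogues of the same number share their ancestry and much of their function. In group 3 the untreated log2 folds were 1.33 for Hoxa3, 1.2 for Hoxb3 and -0.98 for Hoxd3, and the treated ones 0.69 for Hoxa3, 0.82 for Hoxb3 and -0.61 for Hoxd3. In group 4 the untreated log2 folds were 0.55 for Hoxa4, 0.66 for Hoxb4, 0.63 for Hoxc4 and -0.26 for Hoxd4. The treated ones were 1.08 for Hoxa4, 0.7 for Hoxb4, 0.69 for Hoxc4 and -0.7 for Hoxd4. In group 9 they were 2.0 for Hoxa9, 0.76 for Hoxb9, 0.16 for Hoxc9 and -0.13 for Hoxd9, and the treated ones 1.57 for Hoxa9, -0.58 for Hoxb9, -0.21 for Hoxc9 and -0.68 for Hoxd9. In these groups the Hoxd gene had the lowest fold in both treatments, while the order of the other clusters varied. This did not hold in group 10, where the treated log2 folds were 0.43 for Hoxd10 and -0.55 for Hoxc10. Nor did it hold in group 13, in either treatment. There the log2 folds were 0.03 for Hoxd13 and -0.12 for Hoxc13 untreated, and 0.22 and -2.02 treated. Hoxc10 and Hoxc13 passed the filter on low levels only through wild-type libraries. Differences between paralogues were not tested.

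Doxorubicin was then followed within each genotype. In p53-/- cells 0 of 28 Hox genes passed, beside 0% of all genes by limma-trend and limma-voom. Without adjustment, 4 Hox genes had a p under 0.05, all lower (Hoxa3, Hoxb2, Hoxb3 and Hoxc8), and 11.2% of all genes. The largest of these folds was that of Hoxc8, a trunk gene, with 5.31 and 3.78 CPM in treated against 12.3 and 12.5 CPM in untreated p53-/- libraries, a log2 fold of -1.37 (SE 0.45, adjusted p = 0.361). Hoxa3 had 0.911 and 0.756 CPM in treated against 2.84 and 2.16 CPM in untreated p53-/- libraries, and a log2 fold of -1.16. The groups of 2 did not overlap for either gene. This is not separate evidence, since both genes were picked by their p from the same libraries. The share of all genes that separate in this way was not counted. The median Hox log2 fold was -0.42, beside -0.08 for all genes, and 8 of 28 folds lay above 0, beside 44.7% of all genes, with 0 of 7 in cluster C.

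In wild-type cells 3 of 28 Hox genes passed (10.7%), beside 12.6% of all genes, near the background. Hoxb2 fell, and Hoxb7 and Hoxc13 rose, where 8.03% of all genes rose and 4.55% fell. The median Hox log2 fold was -0.12, beside 0.05 for all genes, and 11 of 28 folds lay above 0, beside 53.2%.

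Hoxb2 had 0.654, 0.745 and 0.824 CPM in treated against 2.02, 2.16 and 2.25 CPM in untreated wild-type libraries, with little spread within either group and a log2 fold of -1.09 (SE 0.22, adjusted p = 0.0118). Of the 23 alternative settings that could test it here, it kept its call in 22, and lost it without both wild-type libraries numbered 1 (log2 fold -1.07, adjusted p = 0.0512). The Hoxb2 call between treated genotypes was lost in 12 of 22 settings. It uses the same treated wild-type libraries, so these 2 Hoxb2 calls are not separate evidence. In p53-/- cells Hoxb2 had 2.09 and 1.73 CPM when treated against 3.32 and 3.43 CPM untreated, which gave a log2 fold of -0.69 (adjusted p = 0.407, SE 0.27). The difference of its responses did not pass, so a weaker response without p53 is not shown.

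Hoxc13 had 5.23, 1.21 and 3.09 CPM in treated against 0.715, 1.08 and 0.225 CPM in untreated wild-type libraries, which gave a log2 fold of 1.55 (adjusted p = 0.0409, SE 0.43). The groups did not overlap, but treated library 2 was close to untreated library 2. The comparison of treated genotypes uses the same treated wild-type libraries, so these 2 Hoxc13 calls are not separate evidence. Hoxc13 had 0.304 and 0.315 CPM in treated and 0.529 and 0.528 CPM in untreated p53-/- libraries.

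Hoxb7 had 2.62, 1.68 and 3.91 CPM in treated against 0.953, 1.08 and 0.45 CPM in untreated wild-type libraries, a log2 fold of 1.26 (SE 0.33, adjusted p = 0.0354). Its treated wild-type values lay around those of both p53-/- groups, with 2.35 and 3.24 CPM in treated and 2.21 and 2.99 CPM in untreated p53-/- libraries. This call shares the untreated wild-type libraries with its call between untreated genotypes. Hoxb7 kept its call in 10 and Hoxc13 in 8 of 23 settings. Without treated library 1 the log2 folds were 1.26 for Hoxb7 (adjusted p = 0.0814) and 1.16 for Hoxc13 (adjusted p = 0.11), and without untreated library 3 they were 1.04 (adjusted p = 0.137) and 1.25 (adjusted p = 0.15).

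**Figure D4:**
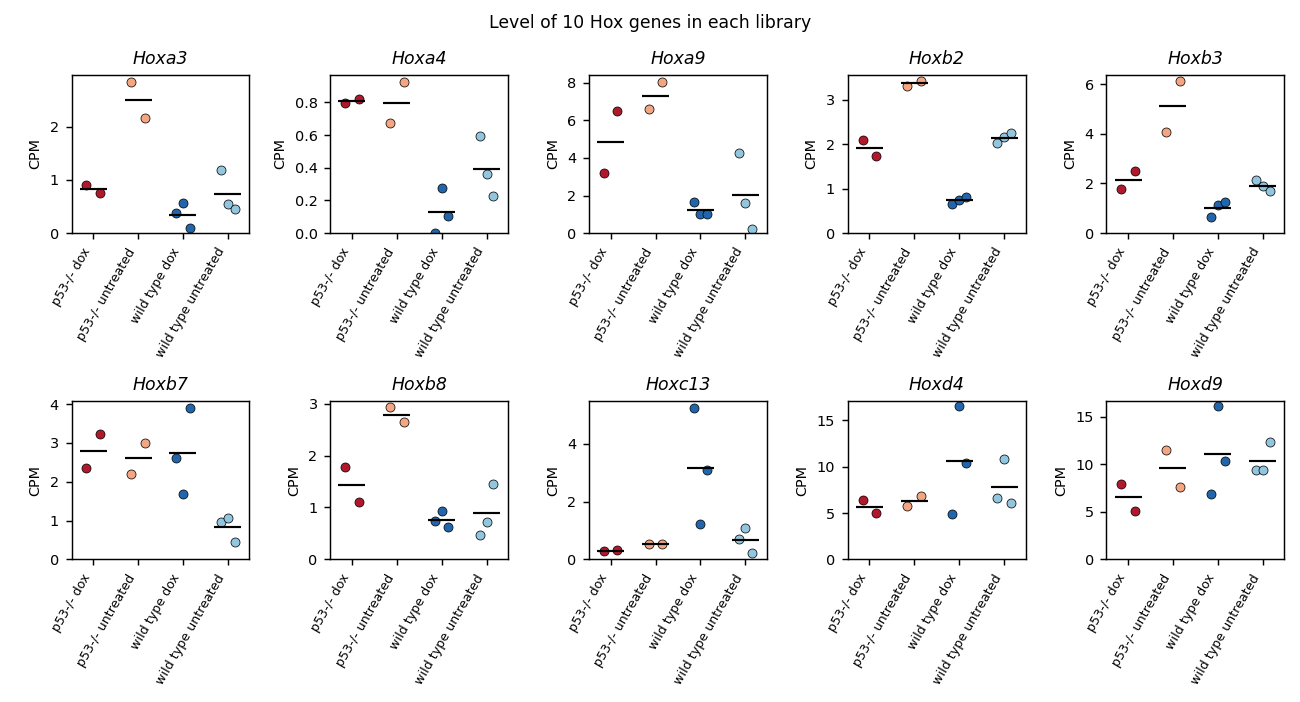
CPM in every library (points) with the group mean (line) for the 8 Hox genes called in any comparison and for Hoxd4 and Hoxd9, p53-/- groups left of wild-type groups, each axis starting at 0. Untreated p53-/- libraries stand above untreated wild-type libraries for Hoxa3, Hoxa9, Hoxb3, Hoxb7 and Hoxb8, and treated wild-type libraries are the high group for Hoxc13.

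The replicate numbers pair the wild-type libraries, and with the number as a block 6 of 28 Hox genes (21.4%) passed in wild-type cells, beside 23.3% of all genes, so the share again was near the background. These were the same 3 and Hoxc4, Hoxc6 and Hoxc8. Hoxc6, a gene of the thorax, was higher in each pair, with 10.8, 15.4 and 8.24 CPM treated against 4.05, 8.45 and 3.82 CPM untreated in libraries 1, 2 and 3. Hoxc8 was lower in each pair, with 3.65, 8.84 and 3.81 CPM treated against 7.86, 12.9 and 7.53 CPM untreated, and so was Hoxc4, with 2.24, 2.89 and 0.824 CPM against 3.69, 7.37 and 2.81 CPM. Without the block, their log2 folds were 1.05 for Hoxc6 (adjusted p = 0.0763), -0.81 for Hoxc8 (adjusted p = 0.186) and -1.05 for Hoxc4 (adjusted p = 0.136). Hoxc6 and Hoxc8 thus moved in opposite directions within the same pairs.

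Counted over all tested Hox genes, treated lay above untreated in all 3 wild-type pairs for 6 (Hoxb5, Hoxb7, Hoxb9, Hoxc6, Hoxc9 and Hoxc13), beside 30.9% of all genes, and below for 9 (Hoxa4, Hoxa7, Hoxb2, Hoxb3, Hoxb6, Hoxc4, Hoxc8, Hoxd3 and Hoxd12), beside 24.8%. Anterior genes had a median log2 fold of -0.61, central ones -0.06 and posterior ones 0.02. Cluster A had 6 of 7 folds below 0 (median -0.43).

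**Figure D5:**
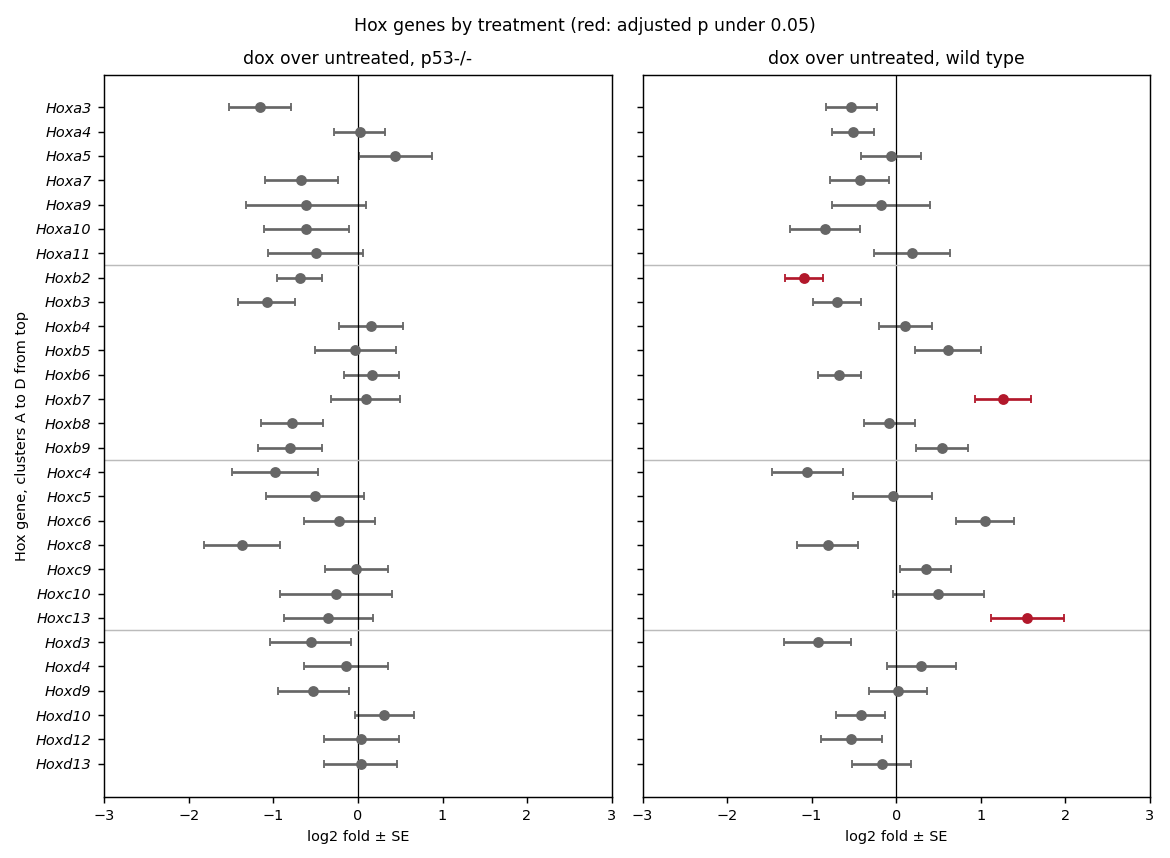
Log2 folds of doxorubicin over untreated with their SE for the 28 tested Hox genes, in p53-/- cells on the left and wild-type cells on the right, calls in red. No p53-/- fold passed, and in wild-type cells Hoxb2 lies left of 0 and Hoxb7 and Hoxc13 right of it.

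The difference of the responses between the genotypes passed for 0 of 28 Hox genes, beside 2.34% of all genes, of which 19.2% were higher in p53-/- cells, or 8.97% with library size alone and 28.1% with median-of-ratios scaling. An unadjusted p under 0.05 was reached by 3 Hox genes, Hoxc13 at -1.9, Hoxb9 at -1.34 and Hoxc6 at -1.28 (p53-/- minus wild-type response), and 21.1% of all genes. The median was -0.41, beside -0.13 for all genes, and 11 of 28 differences lay above 0, beside 44.7%. No Hox gene was therefore shown to respond differently by genotype.

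No gene of cluster D was called in the comparisons as reported. With no filter on low levels, Hoxd1, Hoxd11 and Hoxc11 passed between untreated genotypes, on 11, 20 and 22 reads over the p53-/- and 1, 2 and 4 reads over the wild-type libraries of both treatments. Without treated wild-type library 3, Hoxd3 passed with doxorubicin in wild-type cells, at -1.36 (adjusted p = 0.0375). Hoxd4, a gene of the neck whose model overlaps that of Hoxd3, had 6.41 and 4.97 CPM in treated and 5.77 and 6.82 CPM in untreated p53-/- libraries, against 4.86, 16.5 and 10.4 CPM in treated and 6.67, 10.8 and 6.07 CPM in untreated wild-type libraries. Hoxd9, of the trunk and limbs, had 7.97 and 5.04 CPM in treated and 11.5 and 7.61 CPM in untreated p53-/- libraries, against 6.82, 16.1 and 10.3 CPM in treated and 9.41, 9.44 and 12.3 CPM in untreated wild-type libraries. Both were highest in treated wild-type library 2, and the genotypes overlapped for both genes in treated and in untreated cells. The limb and genital genes Hoxd12 and Hoxd13 ranged from 0.882 to 1.14 CPM and 0.759 to 1.16 CPM in p53-/- libraries, against 0.279 to 1.91 CPM and 0.27 to 1.57 CPM in wild-type libraries.

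Genes that act with or on Hox genes were read from lists. The list of TALE genes holds Tgif1 and Tgif2 beside the Hox partners named above. Of its 11 genes, 2 were higher and 1 lower in untreated p53-/- than in untreated wild-type cells (median 0.32). The higher ones were Meis1 at 1.24 and Tgif1 at 1.28, and the lower one was Meis3 at -1.17. These 3 are 27.3% of the list, beside 33.1% of all genes. Meis1, a Hox partner of limb and blood, had 2.4 and 1.89 CPM in p53-/- and 1.19, 0.629 and 0.225 CPM in wild-type libraries, while Meis3 had 15.5 and 15.8 CPM in p53-/- and 31.8, 33.6 and 43.3 CPM in wild-type libraries. In treated cells Tgif2 was higher and Pbx4 and Meis3 were lower in p53-/- cells (27.3%, beside 12.1% of all genes), and in wild-type cells Pbx4 rose with doxorubicin by 1.37 (SE 0.33, adjusted p = 0.0239).

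Of 22 tested Polycomb and trithorax genes, 6 were higher (among them Ezh2, Kdm6b, Rbbp5, Suz12 and Eed) and 3 lower (Ezh1, Wdr5 and Ash2l) in untreated p53-/- than in untreated wild-type cells (40.9%, beside 33.1% of all genes). The higher ones include the core of Polycomb complex 2, Ezh2, Suz12 and Eed, and also Kdm6b, a demethylase that removes the Polycomb mark. Ezh2, the methyltransferase, had 37.4 and 52.7 CPM in untreated p53-/- against 13.6, 14.6 and 6.86 CPM in untreated wild-type libraries, a log2 fold of 1.95 (SE 0.4, adjusted p = 0.0081). Its relative Ezh1 was lower, with 6.01 and 5.45 CPM in p53-/- against 12.7, 14.7 and 16.6 CPM in wild-type libraries. In treated cells Ezh2 and Cbx7 were higher in p53-/- cells and none was lower (9.09%, beside 12.1% of all genes). With doxorubicin 0 of 22 passed in either genotype, beside 0% of all genes in p53-/- and 12.6% in wild-type cells.

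Of 30 other transcription factors of position and limb tested between untreated genotypes, 11 were higher and 0 lower in p53-/- cells (median 0.92), which is 36.7%, beside 33.1% of all genes. Among these were Meox1, Zic1, Foxd1, En1, Tbx4, Dlx5, Msx2, Tbx18, Twist1 and Irx5. The largest fold was that of Foxd1, of kidney stroma and limb mesenchyme, with 14.7 and 22.8 CPM in p53-/- against 3.93, 0.809 and 1.35 CPM in wild-type libraries (log2 fold 3.09, SE 0.57, adjusted p = 0.00595). En1, which marks ventral limb and dorsal trunk skin, had 15.1 and 20.1 CPM in p53-/- against 2.62, 6.92 and 2.7 CPM in wild-type libraries.

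The forelimb gene Tbx5 and the hindlimb gene Tbx4 were read in both genotypes. Tbx5 had 3.19 and 4.12 CPM in treated and 3.8 and 6.73 CPM in untreated p53-/- libraries, against 0.654, 0.931 and 0.721 CPM in treated and 3.81, 2.43 and 1.57 CPM in untreated wild-type libraries. It fell with doxorubicin in wild-type cells (log2 fold -1.23, adjusted p = 0.0381) and was higher in treated p53-/- than in treated wild-type cells (1.71, adjusted p = 0.0153). Tbx4 had 0.683 and 0.693 CPM in treated and 2.02 and 1.89 CPM in untreated p53-/- libraries, against 1.22, 1.3 and 1.03 CPM in treated and 0.596, 0.539 and 0.112 CPM in untreated wild-type libraries. It was the 1 gene of the lists whose difference of responses passed, at -1.97 (SE 0.42, adjusted p = 0.0428). Its untreated wild-type values lie around the level of 3 reads (0.27 to 0.357 CPM), so this difference leans in part on the 0.5 CPM added. Alternative settings were followed for Hox genes only. With doxorubicin in wild-type cells, Tbx2 at 1.46 rose and Tbx15 at -1.15 and Prrx1 at -1.21 fell. Of 6 tested neighbours of the clusters, Mtx2 and Lnp beside cluster D were higher in untreated p53-/- cells, at 1.14 and 1.44 (33.3%, beside 33.1% of all genes). Mtx2 had 0.715, 0.449 and 0.562 CPM in untreated wild-type libraries. It passed the filter only through p53-/- libraries, which fixes its direction in part. In cluster D itself 5 of 6 untreated folds lay below 0, and the neighbours were not tested against them. Of 6 tested upstream regulators, only Egr2, known as an activator of hindbrain Hox genes, was called between untreated genotypes. It was higher in p53-/- cells at 1.66. This is 16.7% of the list, below the 33.1% of all genes. Hoxa11as, the antisense RNA over Hoxa11, stood at 20.4 to 33 CPM in p53-/- and 18.9 to 52.6 CPM in wild-type libraries. Reads of Hoxa11, at 1.14 to 2.21 CPM in p53-/- and 0.449 to 2.38 CPM in wild-type libraries, cannot be told apart from antisense reads without the strand.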

How the data were processed

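RNA was measured in 10 libraries. The deposited values, 1 per gene with no header, are on a scale close to log2 and behave as variance-stabilised counts. Among the authors' tools and builds, the submitters' processing notes name DESeq and mm9. The sources used here give no aligner, annotation or strand. Whole reads were recovered by walking the curve shared by all libraries: 98.57% of 24012 distinct values lay within 0.01 of a whole read, and the 343 others stood at 44748 reads or more, above the 658 of the highest Hox gene. Recovered reads are computed values, so limma was used.

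Genes with at least 1 CPM by library size in 2 libraries (11177) were scaled by trimmed means (30% and 5%), and log2(CPM + 0.5) was fitted with limma 3.58.1 (trend option, R 4.3.3), 1 mean per group over all 10 libraries. P-values are two-sided, adjusted by Benjamini-Hochberg over 11177 genes, threshold 0.05. Recovery and fit were tested on simulated data. Folds near 0.5 CPM are understated. Floors cover counting error only.

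Named are Hox genes called in any comparison, or else the 2 of highest mean per cluster, and list genes called. Other genes named, such as Hoxb13, Hoxa7 and Hoxb4, were chosen after their values were seen. The members and lists were chosen with earlier results of these data known.

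Wild-type libraries of the same number deviated together from their group means (correlations 0.58, 0.34 and 0.61 over genes), so the numbers pair them. The p53-/- pairs (0.38) are 2 and differ in sex markers. Some members and list genes are not reported here. Peaks were not used: their build differs from that of the annotation at hand. Windows and gene overlaps come from RefSeq (GRCm38.p6), where 11 of 39 Hox genes overlap another listed gene.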

Additional observations from a re-analysis of the deposited data

How the results depend on the processing

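Over 24 alternative settings, no direction reversed among the Hox folds followed. Only folds with an unadjusted p under 0.05 were followed, which makes a reversal unlikely from the start. Among all tested Hox folds signs did change. With library size alone 4 of 6 cluster D folds lay above 0 between untreated genotypes, against 1 of 6 as reported. In cluster C 3 of 7 did so between treated genotypes, against 1 of 7 as reported. Call counts moved as follows, the cause not being tested. With doxorubicin in wild-type cells, 3 Hox genes became 6 with the replicate block, also within wild type alone (added after seeing the data), 1 with limma-voom, with only the groups compared or without both p53-/- libraries numbered 2, and 0 with at least 5 CPM in 2 libraries (none of the 3 is then tested) or without both wild-type libraries numbered 1 (added after seeing the data). Between untreated genotypes, 5 became 9 with library size alone, 3 with the deposited values, 1 with at least 5 CPM and 0 without both p53-/- libraries numbered 2. Between treated genotypes, 3 became 1 with no filter and 0 with at least 5 CPM, with only the groups compared and without both p53-/- libraries numbered 2. The replicate block gave 4 (Hoxa9 lost) between untreated and 3 (Hoxa4 lost, Hoxc6 gained) between treated genotypes, where numbers do not pair, and 0 in p53-/- cells and for the difference of responses. Leaving out 1 library at a time gave 1 to 4 calls with doxorubicin in wild-type cells, 0 to 6 between untreated genotypes, 0 to 3 between treated genotypes, and 0 to 0 for both other comparisons. Between untreated genotypes it was 0 without either untreated p53-/- library, 2 without untreated wild-type replicate 2 and 1 without replicate 3. Between treated genotypes it was 0 without untreated p53-/- replicate 2 or either treated p53-/- library, and 1 without untreated p53-/- replicate 1 or treated wild-type replicates 1 or 3. In wild-type cells it was 1 without any 1 p53-/- library, untreated replicate 3 or treated replicate 1. With 1 library left in a group, that library is assumed to vary like the others. Summed Hox CPM moved to 119 in treated p53-/- cells with library size alone (105 as reported), and in untreated p53-/- cells to 171 with library size alone and 138 with median-of-ratios scaling (145 as reported). The mean number of members with a read moved to 35.5 in treated p53-/- cells (38.5 as reported) and 31.3 in treated wild-type cells (32.7 as reported) with thinned reads. Fits on thinned reads (added after seeing the data) lost Hoxb7 between untreated and Hoxa4 between treated genotypes. Library size alone moved the median log2 fold of all genes to 0.43 between untreated and 0.29 between treated genotypes and to -0.22 in the difference of responses. Depth limits Hox genes under 3 reads a library.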
